A study of Mus musculus with 20 samples.

Results

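The wild-type time course comprised the 5 arrays whose titles name wild-type cells, 1 array each at 1, 2, 4, 8 and 16 h, of 20 arrays in the whole series. On each array RNA of cells given lipopolysaccharide (LPS, a component of the outer membrane of Gram-negative bacteria) was hybridised together with RNA of cells left without LPS for the same time. All cells were bone marrow-derived macrophages of C57BL/6 mice, which are primary macrophages grown in culture from marrow precursors. They had been cultured for 6 days with the growth factor M-CSF, supplied as medium conditioned by L929 cells. They were then replated and washed without serum. LPS from Salmonella was used at 200 ng/mL, and both the treated and the untreated cells were kept in serum-free medium for the stated time. The other arrays carried cells labelled TRIF-KO, MyD88-KO and double-KO (both genes, per the labels), 5 arrays each at the same times, and served here for the spread between arrays and as a comparison. Each array therefore gave an LPS-treated level, an untreated level of the same time point, and their log2 ratio of LPS over untreated. Nothing in the labels tells whether arrays came from separate mice or cultures, so the p-values below measure only the spread between these samples, which may be technical. Where 1 and 2 h or 8 and 16 h are averaged, this spread also holds the change between those 2 times. The time points are therefore not replicates of each other.

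LPS is sensed by macrophages through Toll-like receptor 4, which signals through the adaptors MyD88 and TRIF. MyD88 is known for rapid activation of NF-kB and MAP kinases, and TRIF for the induction of type I interferon, which is secreted and acts back on the cells through STAT transcription factors. Transcriptional responses to LPS are usually described as immediate early genes whose induction needs no new protein, followed by genes that depend on proteins made in between, and by a slow remodelling of metabolism and surface receptors.

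Between 60.2% and 69.6% of the 43020 non-control spots of each wild-type array and channel were well above background. The LPS channel held 17 to 38 saturated spots per array and the untreated channel none, so the highest LPS ratios are lower bounds where saturation is named. All 8 macrophage markers on the array were well above background in every untreated wild-type sample. All 8 neutrophil and precursor markers were so as well, S100a9 brightly (log2 level 14.58 to 15.16) and Mpo dimly (7.61 to 8.21). The same held for 3 of 6 T cell, 2 of 5 B cell, 2 of 4 natural killer cell, 3 of 5 dendritic cell, 2 of 5 fibroblast, 1 of 3 erythroid and 0 of 5 mast cell markers. Among them Siglech was bright (untreated 17.20 to 17.38), and with LPS Lck ranged up to 13.50 and Zbtb46 up to 13.51, from untreated levels of at most 9.96 and 9.14. The part of these markers in the results was not tested. Untreated Ticam1, which encodes TRIF, averaged 10.7 ± 0.19 (SD over 5 arrays) in wild-type, 10.8 ± 0.28 in the cells labelled TRIF-KO and 7.28 ± 0.04 in double-KO cells. Its level therefore shows no loss of the transcript under the label TRIF-KO, and those arrays are called TRIF-KO-labelled here. The labels do not say whether the allele removes the RNA, so this level does not settle the genotype. Myd88 averaged 14.4 ± 0.39 in wild-type and 14.1 ± 0.15 (SD over 4 arrays) in MyD88-KO cells and ranged from 13.88 to 14.22 in double-KO cells, so this probe does not show the loss of Myd88. The wild-type arrays of 1 to 8 h shared a slide and the 16 h array lay on another one.

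The response was small at 1 h and widest at 4 and 8 h. At 1 h 183 genes were at least 2-fold higher with LPS (0.832% of those measured) and 57 at least 2-fold lower (0.259%). The counts were 1014 higher (4.62%) and 620 lower (2.82%) at 2 h, 1797 (8.16%) and 1955 (8.88%) at 4 h, 1611 (7.32%) and 2187 (9.93%) at 8 h, and 1082 (4.91%) and 887 (4.03%) at 16 h. Higher genes outnumbered lower ones at 1 and 2 h, and lower ones were in the majority at 4 and 8 h. With median centring of the ratios the majority turned at 2 h (777 higher, 1379 lower) and at 8 h (2641 higher, 1489 lower). In double-KO cells the same limit was passed on the higher side by 1, 14, 38, 111 and 100 genes from 1 to 16 h (0.00454%, 0.0636%, 0.173%, 0.504% and 0.454%). On the lower side it was passed by 0, 1, 5, 1 and 7 genes (0%, 0.00454%, 0.0227%, 0.00454% and 0.0318%). With 1 array per time and genotype these counts have no replicate check. The fewest genes passed at 1 h under every other processing tried, but the time with most higher genes was 8 h instead of 4 h with median centring of the ratios, and the time with most lower genes was 4 h with median centring and with the scanner's processed signals.

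**Figure D1:**
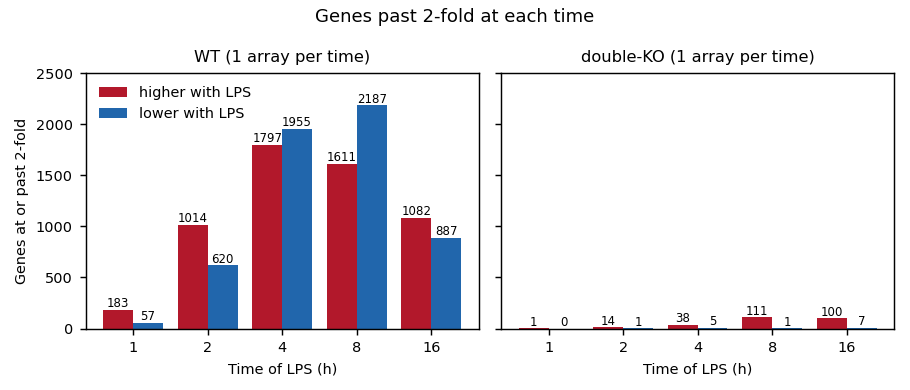
Number of genes at or past 2-fold (vertical axis) at each time of LPS in hours (horizontal axis) for wild-type cells (left) and double-KO cells (right), 1 array per time. Red bars are genes higher with LPS and blue bars genes lower with LPS. The wild-type bars are tallest at 4 h for higher genes (1797) and at 8 h for lower genes (2187), while no double-KO bar exceeds 111.

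Genes entered and left the response in steps. Of the 183 genes higher at 1 h, 171 were still past 2-fold at 2 h, whereas 672 of the 1014 higher at 2 h were so at 4 h. Over the 21905 genes measured on all 5 arrays, 1032 of 1785 remained higher from 4 to 8 h and 659 of 1595 from 8 to 16 h. A set of 55 genes was higher at all 5 times, and 1 sequence known by the clone name BB163080 was lower at all 5. Some genes changed sides: 22 of the 183 higher at 1 h, 63 of those higher at 2 h and 86 of those higher at 4 h were at least 2-fold lower at a later time.

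The 3024 genes that were ever 2-fold higher were sorted by time. Those past the limit at 1 or 2 h but at neither 8 nor 16 h are called early-only (483 genes, 16%). Those past it at 4 h alone are called middle-only (541 genes, 17.9%). Those that first passed at 4 or 8 h and were past it at both 8 and 16 h are called late (404 genes, 13.4%), and those past it at 1 or 2 h and again at both 8 and 16 h are called staying (255 genes, 8.43%). The other 1341 genes followed none of these patterns. Of the early-only genes 68 had passed the limit by 1 h and 415 at 2 h, and their largest ratio fell at 1 h for 22 genes, at 2 h for 345 and at 4 h for 116. Of the late genes 209 first passed at 4 h and 195 at 8 h, and 221 stood highest at 16 h. Among the 3606 genes ever 2-fold lower, 459 were early-only, 650 middle-only, 522 late and 46 staying. Double-KO cells held 0 early-only, 15 middle-only, 61 late and 6 staying genes on the higher side by the same rule. The sizes move with the limit: 6235 genes fell into these 4 classes on either side at 1.5-fold and 1486 at 3-fold, against 3360 at 2-fold.

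**Figure D2:**
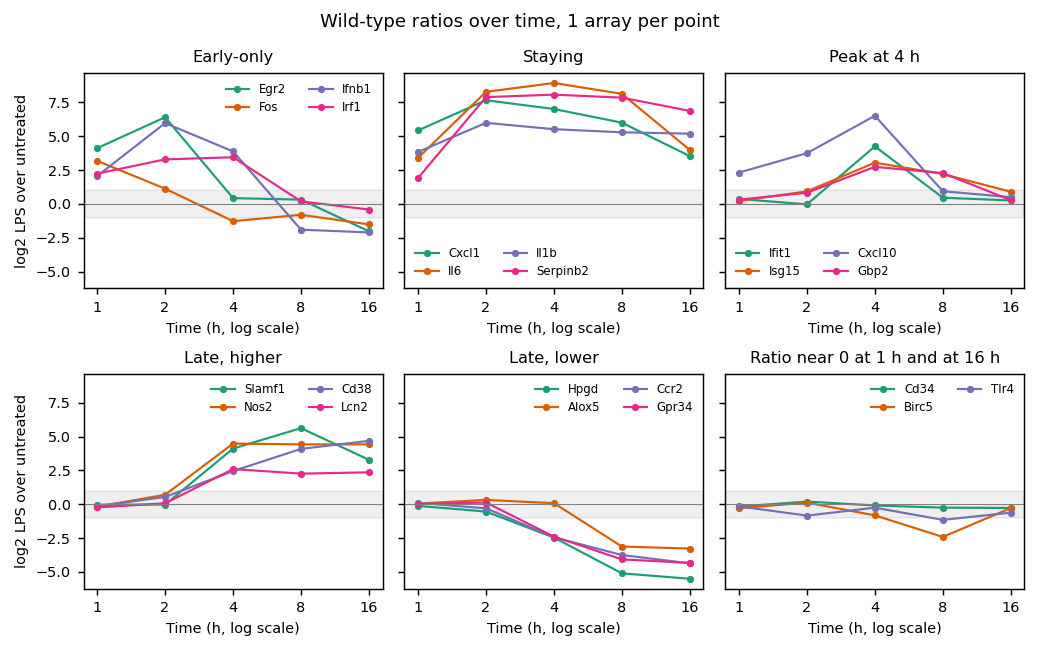
Log2 ratio of LPS over untreated (vertical axis) against time in hours on a log scale (horizontal axis) for named wild-type genes, 1 array per point, grouped by pattern. The grey band covers ratios under 2-fold. Egr2, Fos, Ifnb1 and Irf1 leave the band by 1 h and are inside or below it by 8 h, Nos2 and Slamf1 first leave it at 4 h, and the ratio of Cd34 stays inside it throughout.

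The late response was compared with the early one by setting the mean of 8 and 16 h against the mean of 1 and 2 h, with the spread taken from these arrays together with those of both single knockouts (limma, adjusted p under 0.05). Of 22027 genes tested, 496 (2.25%) differed in their ratio, 225 higher late (1.02%) and 271 lower late (1.23%). Samples of the same time point deviated together across these genotypes. With time point as a replicate block the counts were 1523 higher and 1734 lower, with all 496 among them. Blocked ratio counts of the gene lists below are to be read beside these larger counts over all genes. The early and late wild-type ratios did not overlap in 495 of the 496 and in 9159 of the 21905 genes measured on all arrays. The count depends on single arrays: it was 41 without the 1 h array, 38 without the 2 h array and 60 without the 8 h array, where the lone remaining sample is assumed to vary like the other groups. With the 5 wild-type arrays alone limma called 0 genes, while 2510 had an unadjusted p under 0.05. Median centring of the ratios in place of loess gave a median difference over all genes of 0.165 and turned the split to 142 higher and 41 lower. With slide as a block, which sets 8 h against 1 and 2 h, 379 genes passed.

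Genes past 2-fold at 1 h came from several lists, immediate early transcription factors among them. They included 3 of 4 neutrophil-attracting CXC chemokines and 7 of 14 MAP kinase phosphatases and mRNA decay factors. Inflammatory cytokines (8 of 21), CC chemokines (5 of 11) and NF-kB subunits and inhibitors (6 of 16) had shares similar to each other. Of 22 immediate early factors measured, 13 were past 2-fold at 1 h and 17 at 2 h, and 3 were higher and 6 lower at 16 h. Their median log2 ratio was 1.53, 2.03, 0.68, 0.63 and -0.33 from 1 to 16 h. Of these factors 2 were lower late in their ratio and none higher, and with time point as a replicate block 12 were lower. Egr2, a zinc finger factor of myeloid cells (probe at chr10:67004798-67004857, mm9), had ratios of 4.12, 6.40, 0.43, 0.32 and -2.02. Its untreated level ranged only from 11.63 to 13.10, while the LPS level was 16.53 and 18.03 at 1 and 2 h and 13.53, 13.17 and 10.12 later. The ratio fell by 6.11 ± 1.01 (SE; adjusted p = 0.032) and the LPS level fell by 5.64 ± 1.01 (adjusted p = 0.015), with both early arrays above all later ones.

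Other members of this class differed in how long they lasted. Fos, a subunit of AP-1, peaked first, with ratios of 3.18 at 1 h, 1.13 at 2 h and -1.27 at 4 h, and its late difference of -3.31 ± 0.97 had an adjusted p of 0.14, or 0.0025 with time point as a replicate block. Egr1 stood at 4.93 and 5.62 at 1 and 2 h and still at 2.72 at 8 h, and its LPS level fell by 5.65 ± 1.25 (adjusted p = 0.032). Myc, a driver of cell growth, had ratios of 1.71, 4.01, 1.35, -0.22 and -1.95, and its LPS level fell by 4.19 ± 0.80 (adjusted p = 0.019). Maff, a small Maf protein, stayed high at 3.10, 4.91, 4.12, 3.60 and 2.52. Klf2, a factor that restrains inflammatory transcription, went from 0.96 at 1 h to -0.36 at 2 h and -2.34, -3.94 and -3.28 afterwards, so that its ratio fell by 3.91 ± 0.63 (adjusted p = 0.031). Within this class the last time past 2-fold on the higher side was therefore 2 h for Fos and Egr2, 4 h for Myc, 8 h for Egr1 and 16 h for Maff.

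The RNA of some feedback inhibitors was already past 2-fold at 1 h. Of 16 NF-kB subunits and inhibitors 6 were past 2-fold at 1 h, all 16 at 2 and 4 h, 14 at 8 h and 6 at 16 h on the higher side, and 1 was 2-fold lower at 16 h. Nfkbia, which encodes the inhibitor IkB-alpha, had ratios of 2.49, 3.50, 3.55, 2.53 and 1.47, the first from a saturated LPS spot. Tnfaip3, which encodes the ubiquitin editor A20, had 4.29, 6.57, 5.90, 4.53 and 1.83, with the 2 h spot saturated. Both were past the limit at every time and lowest at 16 h. Nfkbiz, an atypical nuclear IkB protein, instead had 3.54, 4.27, 3.47, 1.25 and -1.44. No ratio in this list passed the test between early and late, and 4 were lower with time point as a replicate block. Among 14 MAP kinase phosphatases and mRNA decay factors 7 were past 2-fold at 1 h and 10 at 2 h. Dusp1, a phosphatase that switches off p38 and JNK, had 3.30, 4.22, 3.95, 3.18 and 0.88. Zfp36l1, which binds AU-rich mRNA, had 1.13, 1.12, -2.45, -2.77 and -1.85, and its ratio fell by 3.44 ± 0.63 (adjusted p = 0.043).

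Of the neutrophil-attracting CXC chemokines, 3 of 4 were past 2-fold at 1 h and all 4 from 2 to 16 h. All 4 belonged to the staying class, with a median ratio of 4.04, 6.47, 6.17, 5.34 and 2.90. Cxcl1 had the highest ratio of any gene at 1 h, 5.43 or 43.2-fold. It then stood at 202-fold at 2 h, 129-fold at 4 h, 63.9-fold at 8 h and 11.5-fold at 16 h. Cxcl2 followed the same order (4.93, 6.61, 5.87, 5.07 and 2.27), and Cxcl3 was still at 4.86 at 16 h after 3.15, 6.33, 6.48 and 5.61. Of the CC chemokines 5 of 11 were past the limit at 1 h, 8 at 2 h, 10 at 4 h and 4 at 16 h. At 16 h 3 others were at least 2-fold lower. Ccl4, an inflammatory chemokine, went from 2.77 and 5.64 to 6.34 at 4 h from a saturated spot, then to 3.67 and -2.17. Its untreated level was 12.89 at 4 h and 16.28 at 16 h, its highest, and with time point as a replicate block that late difference of 1.78 ± 0.79 had an adjusted p of 0.0058, against 0.23 without it. Ccl5, which attracts T cells and monocytes, stayed instead at 3.08, 3.30, 3.35 and 2.88 from 2 to 16 h.

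Among 21 inflammatory cytokines 8 were past 2-fold at 1 h, 15 at 2 h, 18 at 4 h, 15 at 8 h and 6 at 16 h, and none was 2-fold lower at any time. Tnf, the prototype early cytokine, had ratios of 2.62, 3.40, 3.24, 2.50 and 0.41. Il6 was slower and larger, with 3.40 at 1 h, 8.28 at 2 h, 8.93 or 489-fold at 4 h, 8.13 at 8 h and 3.98 at 16 h. Il12b, a subunit of interleukins 12 and 23, was at least 2.37-fold higher at 1 h, stood at 6.46, 6.69 and 5.54 from 2 to 8 h, and was at least 2.82-fold higher at 16 h. Il6 was highest at 4 h in its LPS level too (18.38, against 10.78 at 1 h and 11.63 at 16 h). Il1b was still high at 16 h, with 3.84, 5.99, 5.52, 5.29 and 5.19. Of its 10 LPS spots 6, 6 and 8 were saturated at 2, 4 and 8 h, and 0 at 16 h. The ratios from 2 to 8 h are therefore lower bounds, and a decline to 16 h may be larger than they show. Csf2, a myeloid growth factor, was brief, with 5.39 at 2 h, at least 6.18-fold at 4 h, and 0.75 and 0.16 at 8 and 16 h. No cytokine of this list passed the test of the ratio, and with time point as a replicate block 4 were higher and 5 lower late.

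Of 7 anti-inflammatory cytokines and SOCS proteins 2 were 2-fold higher at 1 h, 4 at 2 h and 6 at 4 h. The counts were 4 at 8 h and 3 at 16 h, when 1 was 2-fold lower. Il10, the main anti-inflammatory cytokine of macrophages, had ratios of 2.28, 3.62, 3.60, 1.15 and -2.61, while its untreated level rose by 1.60 ± 0.19 between early and late (adjusted p = 0.0059). Socs3, an inhibitor of cytokine receptor signalling, was at 2.44, 3.33, 2.70, 2.59 and 2.07 and so past 2-fold at every time. Large ratios were also seen in genes outside that list. Serpinb2, an inhibitor of plasminogen activators, was at least 3.78-fold higher at 1 h and then stood at 7.89, 8.07, 7.85 and 6.87. Ptgs2, the inducible cyclooxygenase of prostaglandin synthesis, had 3.99, 7.91, 8.01, 7.35 and 4.42. Acod1, which makes the antibacterial metabolite itaconate, had 1.70 at 1 h and then 4.87, 5.15, 4.64 and 4.30 from partly saturated spots.

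Promoter sequence is shown for genes of the first, middle and late groups because their members moved together in time. Windows of 250 bases before to 50 after the transcription start were taken from RefSeq (GRCm38.p6), and stretches of them are printed 5′ to 3′ with matches in capitals. The motifs searched on both strands were GGANTTTCC and GGANTTCCC (NF-kB), AAANNGAAA (the core of the interferon-stimulated response element, ISRE) and TGANTCA (AP-1).
Nfkbia, chr12:55492658-55492837, minus strand: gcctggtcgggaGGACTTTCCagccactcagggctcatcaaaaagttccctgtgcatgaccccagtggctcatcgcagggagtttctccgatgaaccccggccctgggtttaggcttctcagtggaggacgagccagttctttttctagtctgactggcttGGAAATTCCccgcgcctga
Cxcl1, chr5:90891135-90891234, plus strand: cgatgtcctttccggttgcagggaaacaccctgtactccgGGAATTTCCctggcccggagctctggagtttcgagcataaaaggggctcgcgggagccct
Il6, chr5:30013044-30013093, plus strand: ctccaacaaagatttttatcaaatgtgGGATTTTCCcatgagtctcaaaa
Cxcl10, chr5:92348950-92349109, minus strand: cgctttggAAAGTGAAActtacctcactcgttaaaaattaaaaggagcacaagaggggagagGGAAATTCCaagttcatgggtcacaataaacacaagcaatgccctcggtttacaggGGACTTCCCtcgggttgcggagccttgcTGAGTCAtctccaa
Ifit1, chr19:34640769-34640828, plus strand: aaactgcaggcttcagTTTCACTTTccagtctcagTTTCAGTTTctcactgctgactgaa
Isg15, chr4:156200839-156200908, minus strand: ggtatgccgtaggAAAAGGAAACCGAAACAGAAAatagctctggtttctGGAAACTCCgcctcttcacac
Slamf1, chr1:171767022-171767121, plus strand: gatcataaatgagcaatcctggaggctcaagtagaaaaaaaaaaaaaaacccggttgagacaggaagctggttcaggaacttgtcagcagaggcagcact
Lcn2, chr2:32387750-32387849, minus strand: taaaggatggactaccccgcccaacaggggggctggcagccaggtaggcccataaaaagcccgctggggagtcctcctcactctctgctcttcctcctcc
Nfkbia holds 2 NF-kB matches in this stretch, Cxcl1 and Il6 hold 1 each, and Cxcl10 holds 2 together with an ISRE match and an AP-1 match. Ifit1 holds 2 ISRE matches, and Isg15 holds 3 that overlap each other and 1 NF-kB match on the other strand. The stretches of Slamf1 and Lcn2 hold no match, which says only that these letters are not in the printed bases, 110 to 11 before the start. The stretches differ in position and length between genes, so the numbers of matches are not comparable.

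Of all 27025 genes with a promoter window 2.85% held an NF-kB match, 12.1% an ISRE match and 8.97% an AP-1 match. Of the 13419 genes measured here that had a window the shares were 3.31%, 10.6% and 7.24%. An NF-kB match was present in 21 of 292 early-only higher genes (7.19%), 19 of 181 staying genes (10.5%), 2.91% of the middle-only and 4.41% of the late genes. An ISRE match was present in 68 of 344 middle-only genes (19.8%), 13.7% of the early-only, 14.9% of the staying and 8.82% of the late genes. Among the listed genes with a window, 8 of 13 NF-kB subunits and inhibitors held an NF-kB match, and 17 of 22 antiviral genes and 9 of 9 interferon-induced GTPases held an ISRE match. These shares are descriptions and were not tested.

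Interferon beta came early and most antiviral genes came at 4 h. Ifnb1, the type I interferon made first by macrophages, had ratios of 2.06 at 1 h, 5.97 at 2 h and 3.88 at 4 h, then -1.90 and -2.10. Its LPS level was 9.58, 14.55, 12.95, 8.91 and 9.14, so the 8 and 16 h values lay below the 1 h value. Its untreated level was 7.51, 8.58, 9.07, 10.81 and 11.24, with both late arrays above all earlier ones, and it rose by 2.98 ± 0.36 (adjusted p = 0.0060). The late difference in ratio, -6.02 ± 1.31, had an adjusted p of 0.070, or 0.0057 with time point as a replicate block. Irf1, an interferon regulatory factor, was early as well, at 2.24, 3.29, 3.45, 0.19 and -0.41, and its ratio fell by 2.88 ± 0.47 (adjusted p = 0.032). Here too the untreated level rose, by 1.69 ± 0.26 (adjusted p = 0.012), from 15.67 and 15.20 to 17.03 and 17.22.

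Of 31 interferon-stimulated antiviral genes none was past 2-fold at 1 h and 4 were at 2 h, against 30 at 4 h, 8 at 8 h and none at 16 h on the higher side, where 1 was 2-fold lower at 16 h. Of these genes 20 were middle-only. Ifit1, which binds foreign RNA lacking a host cap (probe at chr19:34723796-34723855, mm9), had ratios of 0.37, -0.03, 4.25, 0.46 and 0.26. Its LPS level was 14.81, 14.62, 17.78, 16.31 and 15.62, and its untreated level 14.44, 14.65, 13.53, 15.84 and 15.35. The LPS level was therefore still above its 1 and 2 h values at 8 and 16 h, while the untreated level was above them too, a rise of 1.06 ± 0.21 (adjusted p = 0.031). Mx2, an antiviral GTPase, had a ratio of 4.21 at 4 h and 0.10 at 8 h, and its untreated level rose by 1.69 ± 0.26 (adjusted p = 0.012). Isg15, a ubiquitin-like protein, lasted longer, with 3.05 and 2.21 at 4 and 8 h, both from saturated LPS spots, and 0.90 at 16 h.

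The channels of this group were separated step by step. From 2 to 4 h the LPS level of the antiviral genes was higher by a median of 1.38 and the untreated level lower by 0.51. From 4 to 8 h the ratio was lower for all 31 genes, and over the same step the untreated level was higher for all 31, by a median of 1.19, while the LPS level was lower for 21 of 31, by a median of 0.20. The step of the untreated channel was the larger one in 30 of 31 genes. From 8 to 16 h the LPS level was lower in 29 genes, by a median of 0.59, and the untreated level higher in 27, by a median of 0.34. Under each other scaling tried all 31 untreated levels were higher at 8 than at 4 h, by a median between 1.01 and 1.49. Between 1-2 h and 8-16 h, 17 of the 31 rose in the untreated channel, 9 rose in the LPS channel and none changed in ratio, with 27, 22 and 0 when time point was a replicate block. Over all genes 3.62% rose in the untreated and 4.55% in the LPS channel, or 3184 and 2681 of 22027 genes with that block.

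The median untreated level of the 31 genes was 14.84, 14.77, 14.31, 15.84 and 16.46 from 1 to 16 h in wild-type cells, beside 14.86, 14.70, 17.10, 16.78 and 15.92 with LPS. The TRIF-KO-labelled cells had untreated medians of 15.26, 14.96, 14.53, 16.22 and 16.78 at the same times. In MyD88-KO cells the median was 13.88 at 4 h and 14.26 at 8 h, and in double-KO cells 12.84 and 13.62, so the level was lower in both but the 8 h value lay above the 4 h value in all 4 genotypes. The difference between genotypes was not tested.

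Cxcl10, a chemokine for T cells induced by interferon (chr5:92775781-92775840, mm9), also showed this split. Its LPS level was 17.40, 18.64, 19.24, 18.16 and 17.73, the second from a saturated spot, and its untreated level 15.07, 14.89, 12.73, 17.23 and 17.24. The ratio thus went from 6.51 at 4 h to 0.94 at 8 h. The LPS level stepped down, and the untreated level stepped up by more. Between early and late the untreated level rose by 2.25 ± 0.21 (adjusted p = 0.0025), and the LPS level differed by -0.07 ± 0.47 (adjusted p = 0.95), a value that turned positive (0.09) with median centring. Cxcl9, also a chemokine induced by interferon, differed, with ratios of 4.09, 3.26 and 2.26 at 4, 8 and 16 h. The untreated level of Usp18, a brake on interferon signalling, rose by 1.71 ± 0.16 (adjusted p = 0.0025). That of Cmpk2, a mitochondrial nucleotide kinase, rose by 2.01 ± 0.16 (adjusted p = 0.0024). All 11 guanylate-binding and immunity-related GTPases, which attack vacuoles that hold pathogens, were past 2-fold at 4 h, 5 at 8 h and 2 at 16 h on the higher side, and 1 was 2-fold lower at 16 h. Their untreated level was higher at 8 than at 4 h in all 11, by a median of 1.25, and 6 of 11 rose between early and late, or 11 of 11 with time point as a replicate block. Irgm2 rose there by 1.92 ± 0.17 (adjusted p = 0.0024).

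**Figure D3:**
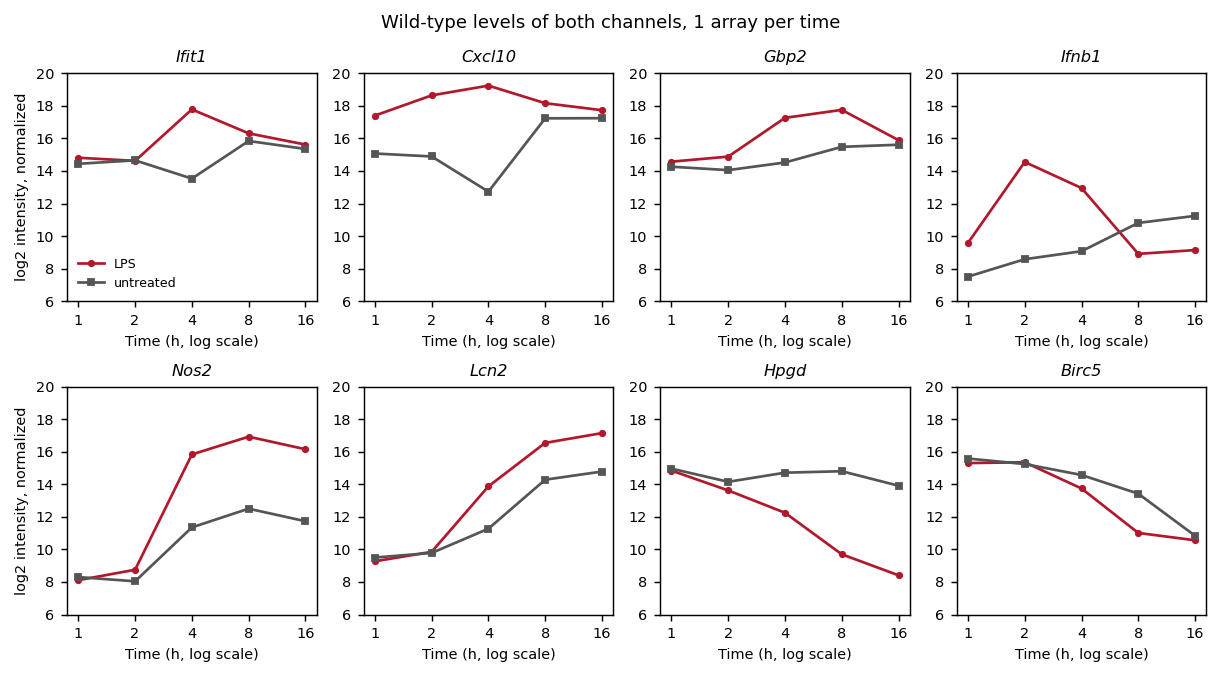
Normalised log2 intensity (vertical axis) of the LPS-treated (red circles) and untreated (grey squares) channels against time in hours on a log scale (horizontal axis) for 8 wild-type genes, 1 array per time. The untreated line of Cxcl10 goes from 12.73 at 4 h to 17.23 at 8 h, Nos2 and Lcn2 are higher late in both channels, Hpgd is lower in the LPS channel, and both lines of Birc5 descend.

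The late group held enzymes, secreted defence proteins and surface molecules. Nos2, the inducible nitric oxide synthase (chr11:78773567-78773626, mm9), had ratios of -0.18 and 0.70 at 1 and 2 h and then 4.48, 4.42 and 4.42. Its LPS level was 8.11, 8.75, 15.83, 16.92 and 16.15, and its untreated level 8.30, 8.04, 11.35, 12.50 and 11.73, so both channels were higher from 4 h on. The ratio rose by 4.16 ± 0.38 (adjusted p = 0.0065), the untreated level by 3.94 ± 0.33 (adjusted p = 0.0024) and the LPS level by 8.10 ± 0.39 (adjusted p = 0.00074). The flat ratio from 4 to 16 h thus stood on a moving untreated level. Slc7a2, which imports the arginine that Nos2 uses, was past 2-fold from 2 h on and so belonged to the staying class. It had -0.05, 1.78, 4.13, 5.26 and 4.94, and its ratio rose by 4.24 ± 0.54 (adjusted p = 0.016). Ass1, which regenerates arginine from citrulline, rose by 1.95 ± 0.26 (adjusted p = 0.018). In this list of 15 enzymes 3 ratios rose and 2 fell, or 8 and 2 with time point as a replicate block. The shares over all genes were 1.02% and 1.23% without the block.

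Of 13 acute phase, complement and antimicrobial genes none was past 2-fold at 1 h (median ratio -0.03), 4 were 2-fold higher at 2 h, 9 at 4 h and 7 at 8 and 16 h, when 2 and 4 others were 2-fold lower. Lcn2, which sequesters bacterial iron carriers (chr2:32240199-32240258, mm9), had ratios of -0.23, 0.07, 2.60, 2.26 and 2.36. Its untreated level was 9.50, 9.78, 11.27, 14.28 and 14.78, and rose by 4.89 ± 0.52 (adjusted p = 0.0044), with the ratio higher by 2.39 ± 0.23 (adjusted p = 0.0078). Cfb, a complement protease, had ratios of 0.08, 0.51, 3.00, 3.26 and 3.47, and rose in its ratio by 3.07 ± 0.30 (adjusted p = 0.0080). Hp, the haemoglobin scavenger haptoglobin, had 1.68, 3.26 and 3.53 at 4, 8 and 16 h (rise of 3.65 ± 0.40, adjusted p = 0.010), as did Slpi, a protease inhibitor (1.65, 3.86 and 4.55). In the list 4 ratios and 4 untreated levels rose and none fell, beside rises in 1.02% and 3.62% of all genes. With time point as a replicate block the ratios were 6 higher and 4 lower and the untreated levels 10 higher. Over all 22027 genes that block gave 1523 and 1734 ratios and 3184 higher untreated levels.

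Among 17 costimulatory, adhesion and activation molecules 4 were 2-fold higher at 1 h, 9 at 2 h and 15 at 4 and 8 h, when 1 was 2-fold lower. In this list 3 ratios rose late and none fell, or 8 and 3 with time point as a replicate block. Over all 22027 genes 225 rose and 271 fell, or 1523 and 1734 with that block. Slamf1, a self-ligand receptor (chr1:173730343-173730402, mm9), stood at -0.03 and -0.02 at 1 and 2 h, where neither channel was well above background, and at 4.11 and 5.62 at 4 and 8 h. It was at least 9.69-fold higher at 16 h. Cd38, an ectoenzyme that degrades NAD, was highest at the last time, with -0.14, 0.54, 2.45, 4.09 and 4.68 (rise of 4.19 ± 0.36, adjusted p = 0.0056). Other genes whose ratio rose late were Acsl1, which activates fatty acids (3.93 ± 0.48, adjusted p = 0.014), Dgat2, which makes triglycerides (3.84, adjusted p = 0.0095), and Bst1, a relative of Cd38 (3.72 ± 0.22, adjusted p = 0.0012). For Acsl1 the untreated level fell by 1.28 ± 0.25 (adjusted p = 0.028), so part of the ratio came from that channel.

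Metabolic genes joined from 2 h on. Of 17 glycolysis and hypoxia genes none was 2-fold higher at 1 h, 3 were at 2 h, 7 at 4 h, 10 at 8 h and 12 at 16 h, when 1 was 2-fold lower, and the median ratio was highest at 16 h (1.95). Pfkfb3, which makes the activator of phosphofructokinase, was at -0.13, 0.07, 4.32, 3.80 and 2.57 and rose by 3.22 ± 0.42 (adjusted p = 0.018). Ldha, lactate dehydrogenase A, stood at 0.04, 1.23 and 2.02 at 4, 8 and 16 h, while its untreated level fell by 0.84 ± 0.18 (adjusted p = 0.034). In this list 2 ratios rose and none fell, or 11 and 1 with time point as a replicate block. Of 11 targets of Nrf2, the regulator of the oxidative stress response, 4 ratios rose and none fell. Over all genes 1.02% of the ratios rose and 1.23% fell, or 1523 and 1734 of 22027 with the block. Hmox1, haem oxygenase, was at 0.01, -0.20 and -0.85 up to 4 h and at 1.99 and 1.84 afterwards (rise of 2.00 ± 0.26, adjusted p = 0.018). Gsr, glutathione reductase, Osgin1, a growth inhibitor, and Prdx1, a peroxidase, rose by 2.32 ± 0.38, 1.96 ± 0.32 and 1.48 ± 0.20 (adjusted p = 0.032, 0.031 and 0.018).

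**Figure D4:**
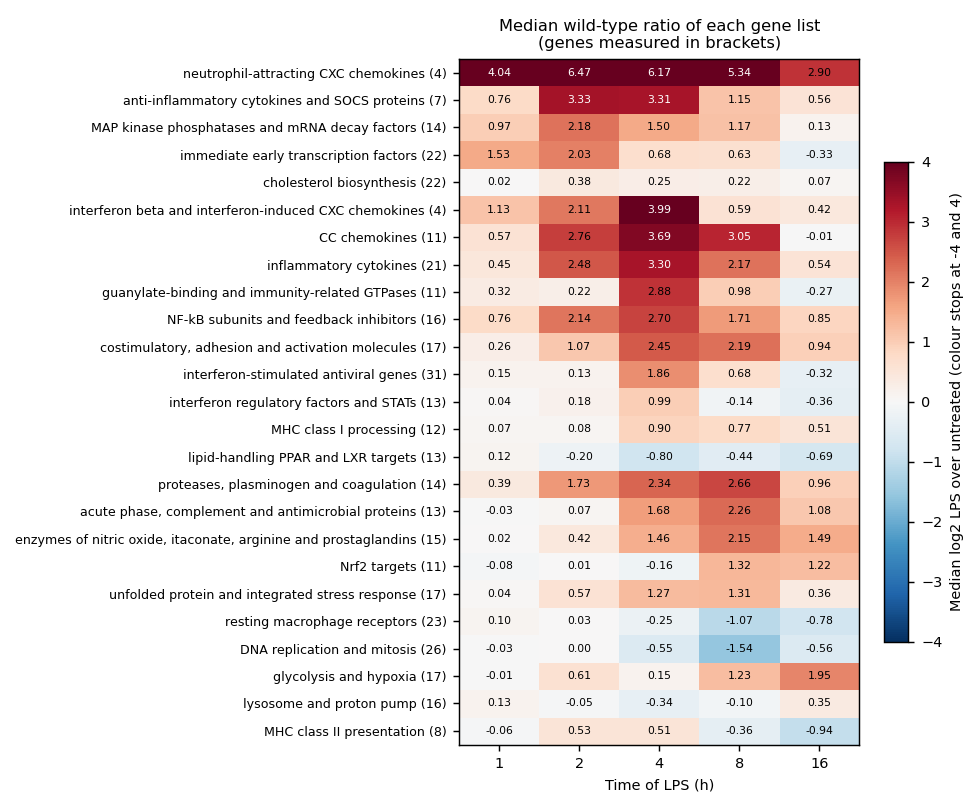
Median log2 ratio of LPS over untreated in wild-type cells for 25 gene lists (rows, number of genes measured in brackets) at each time in hours (columns), 1 array per time. Rows are ordered by the time of the largest median. CXC chemokines lead at 1 h (4.04). Within their own rows, antiviral genes and GTPases are highest at 4 h (1.86 and 2.88) and glycolysis genes at 16 h (1.95). CXC chemokines stand above those lists at these times too (6.17 at 4 h and 2.90 at 16 h).

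Genes of the resting macrophage were lower late. Of 23 receptors of resting macrophages none was 2-fold lower at 1 or 2 h, 6 were at 4 h, 13 at 8 h and 10 at 16 h, while 1 or 2 were 2-fold higher at each time from 2 h on. In this list 4 ratios fell late and none rose, or 11 and 1 with time point as a replicate block. Over all genes 1.23% fell. Ccr2, the receptor for the monocyte chemokine CCL2, had ratios of 0.10, -0.30, -2.44, -3.75 and -4.36 (fell by 3.96 ± 0.50, adjusted p = 0.016). Gpr34, a lysophospholipid receptor, fell by 4.27 ± 0.52 (adjusted p = 0.014) and was at least 20.1-fold lower at 16 h. Mrc1, the mannose receptor, was slower, with -0.29, -2.14 and -4.57 at 4, 8 and 16 h, and its difference had an adjusted p of 0.23, or 0.0015 with time point as a replicate block. Clec10a, a galactose-binding lectin, fell by 4.36 ± 0.77 in its ratio (adjusted p = 0.038) while its untreated level rose by 1.88 (adjusted p = 0.027).

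Single genes of lipid mediators and lipid uptake were also lower, although of the 15 enzymes of nitric oxide, itaconate, arginine and prostaglandins 9 were 2-fold higher and 3 lower at 16 h. Hpgd, which inactivates prostaglandins (chr8:58799399-58799458, mm9), had the lowest ratio at 16 h, with -0.12, -0.54, -2.46, -5.10 and -5.50. Its untreated level stayed between 13.91 and 14.96, while its LPS level was 14.84, 13.62, 12.25, 9.70 and 8.41. The ratio fell by 4.97 ± 0.28 (adjusted p = 0.0012) and the LPS level fell by 5.17 ± 0.72 (adjusted p = 0.0061), so the change lay in the LPS channel. Alox5, which starts leukotriene synthesis (chr6:116360326-116360385, mm9), was near 0 up to 4 h (0.05, 0.32 and 0.08) and then at -3.12 and -3.27 (fell by 3.38 ± 0.18, adjusted p = 0.0012). St6gal1, a sialyltransferase, and Rasgrp3, an activator of Ras, fell by 4.54 ± 0.19 and 4.17 ± 0.17 (adjusted p = 0.00038 for both). The probes of St6gal1 disagree: a dimmer probe had ratios of 0.98 and 1.57 at 8 and 16 h, where the one used had -4.29 and -4.31. Lpl, lipoprotein lipase, had 0.01, -0.50, -1.09, -2.15 and -2.94 (fell by 2.30 ± 0.35, adjusted p = 0.027), and its untreated level rose by 1.42 ± 0.17 (adjusted p = 0.0057).

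Genes of DNA replication and mitosis followed a course of their own. None of 26 was 2-fold lower at 1 h, 1 was at 2 h, 6 at 4 h, 19 at 8 h and again 6 at 16 h, while 1 to 3 were 2-fold higher from 2 h on. Their median ratio was -0.03, 0.00, -0.55, -1.54 and -0.56. The median untreated level was 12.37, 12.33, 11.81, 11.41 and 9.92 and the LPS level 12.31, 12.12, 11.34, 9.96 and 9.13. From 8 to 16 h, where the ratio came nearer 0, the median of the genes' own steps was -0.92 in the untreated and 0.05 in the LPS channel. Birc5, which encodes the mitotic protein survivin (chr11:117716978-117717037, mm9), had ratios of -0.29, 0.12, -0.82, -2.41 and -0.28, with untreated levels of 15.58, 15.24, 14.57, 13.42 and 10.84 and LPS levels of 15.30, 15.35, 13.74, 11.01 and 10.56. Its LPS level fell by 4.54 ± 0.50 (adjusted p = 0.0033). Mki67, a marker of dividing cells, went the other way, with ratios of 0.21, 1.78, 2.03, 1.05 and 2.39. In the list 17 LPS levels fell and 1 rose and 4 untreated levels fell, or 22 and 1 and 17 with time point as a replicate block, where 1 untreated level rose. No ratio changed without the block, while 13 fell and 1 rose with it. Over all genes 5.24% of the LPS levels and 2.76% of the untreated levels fell, or 3157 and 3340 of 22027 with the block. Fewer cells in cycle and less RNA per cell cannot be told apart in these bulk samples.

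The untreated channel moved on its own. Of 22027 genes 1406 (6.38%) differed between early and late in the untreated level, 797 higher and 609 lower (3.62% and 2.76%), and 2157 (9.79%) in the LPS level, 1002 higher and 1155 lower (4.55% and 5.24%). These are levels relative to the other genes of the array: without quantile normalisation the median late minus early difference of all genes was -0.448 in the untreated and -0.428 in the LPS channel, and 3.97% of 4842 and 8.31% of 4188 called genes were higher. With time point as a replicate block 6524 untreated and 5838 LPS levels passed. Within the slide that held 1, 2 and 8 h the untreated count was 321, the value also obtained without the 16 h array. It was 278 without the 1 h array, 437 without the 2 h array and 779 without the 8 h array, and the LPS count was 688, 793 and 1213 without those 3 arrays.

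Genes that moved in both channels alike leave no trace in the ratio. Cd34, a surface marker of blood precursors (chr1:196787392-196787451, mm9), had untreated levels of 13.67, 13.46, 12.71, 10.22 and 7.34 and LPS levels of 13.50, 13.66, 12.62, 9.97 and 7.07. The untreated level fell by 4.78 ± 1.07 (adjusted p = 0.041) and the LPS level fell by 5.06 ± 1.11 (adjusted p = 0.031), while its ratio stayed between -0.27 and 0.20 at all 5 times. The untreated level of Id3, an inhibitor of helix-loop-helix factors, fell by 4.44 ± 0.59 (adjusted p = 0.0075), and that of Smad6, an inhibitor of BMP signalling, by 3.23 ± 0.32 (adjusted p = 0.0035). Fabp7, a fatty acid-binding protein, is a case of the opposite kind: its ratio was -0.42, 0.27, 0.61, 2.46 and 3.46, its LPS level lay between 11.67 and 12.40 at every time, and its untreated level went down from 12.83 to 8.50 (fell by 3.35 ± 0.59, adjusted p = 0.020). Timp1, an inhibitor of matrix proteases, and Ccl12, a ligand of CCR2, rose in the untreated channel by 2.86 ± 0.30 and 2.35 ± 0.34 (adjusted p = 0.0044 and 0.0099).

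For the 496 genes whose ratio changed, the LPS channel carried most of the change. It was the larger of both changes in 208 of the 225 genes that rose and in 243 of the 271 that fell. The median change of the genes that rose was 0.17 in the untreated and 1.59 in the LPS channel, and that of the genes that fell 0.11 and -1.63. Of the genes that rose, 138 passed the test in the LPS channel alone, 36 rose in both channels, 5 rose with LPS while the untreated level fell, 11 passed only by a lower untreated level, and 35 passed in neither channel. Of those that fell, 175 passed in the LPS channel alone, 12 fell in both, 6 had a higher untreated and a lower LPS level, 16 passed only by a higher untreated level, and 62 passed in neither.

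**Figure D5:**
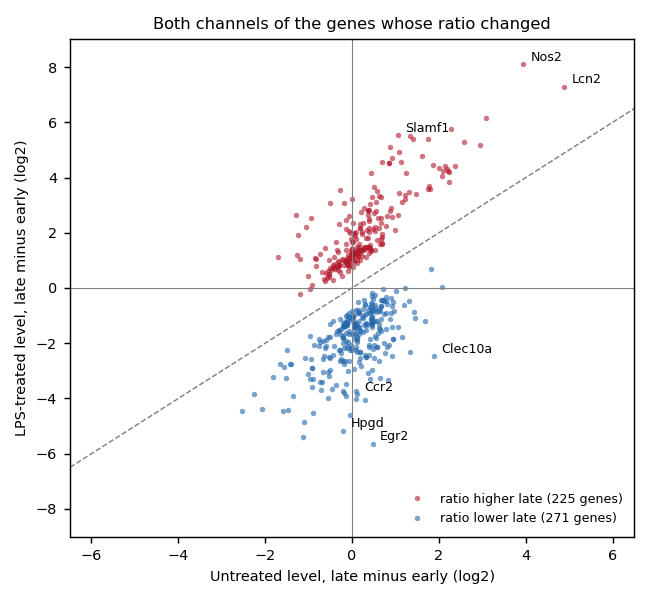
Late minus early difference of the LPS-treated level (vertical axis) against that of the untreated level (horizontal axis), both log2, for the genes whose ratio rose (red, 225) or fell (blue, 271) in wild-type cells. The dashed line marks equal changes. Nos2 and Lcn2 lie far to the upper right because both of their channels rose, while Hpgd and Egr2 lie near the vertical axis, where the LPS channel changed.

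Fading was split the same way for genes that left the response. For the 483 early-only genes, the level from the peak to the mean of 8 and 16 h was lower with LPS by a median of 1.18 and higher in the untreated channel by a median of 0.20. The untreated level went up by more than the LPS level went down in 83 of them, and the LPS level was not lower at all in 14. For the 541 middle-only genes the medians were 0.99 lower with LPS and 0.30 higher untreated, the untreated step was the larger one in 144, and the LPS level was not lower in 25. These comparisons start from the peak that defined the class, so a decline in ratio is given by the choice and only its split between channels is described.

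The wild-type ratios were finally set against the cells labelled double-KO. At 8 and 16 h 1863 genes (8.46%) differed from double-KO cells, 909 higher (4.13%) and 954 lower (4.33%) in wild-type, and their median absolute ratio was 1.23 in wild-type and 0.09 in double-KO cells. The split was 80.4% higher with median centring of the ratios, and the count was 1054 without the 8 h array and 2862 without the 16 h array. Nos2 differed by 4.39 ± 0.33 (adjusted p = 0.00020), Serpinb2 by 7.39 ± 1.72 (adjusted p = 0.032), Cxcl1 by 4.72 ± 1.04 (adjusted p = 0.025) and Hpgd by -5.26 ± 0.24 (adjusted p = 1.3e-05). By class, 319 of 404 late and 138 of 255 staying genes were higher than in double-KO cells at these times, and 432 of 522 late lower genes were lower. These classes were chosen on the same wild-type values at 8 and 16 h, so their counts are a description and support nothing. By list, 9 of 15 enzymes of nitric oxide and related pathways were higher and 3 lower. Of 13 acute phase genes 7 were higher and 1 lower, and of 17 glycolysis genes 9 were higher and 0 lower. Of 23 resting receptors 8 were lower and 1 higher. None of the 31 antiviral genes passed in either direction. With time point as a replicate block 4 of the 31 were higher and 0 lower, beside 1477 higher of all 22031 genes.

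At 1 and 2 h only 4 genes (0.0182%) passed the same test, 2 higher and 2 lower (0.00908% each), while 1572 had an unadjusted p under 0.05. The early arrays differed from each other: the median early-only gene was higher by 0.98 in ratio at 2 h than at 1 h, and the median staying gene by 1.49. The 4 genes are named after their values were seen. Socs3 had ratios of 2.44 and 3.33 against -0.14 and -0.08 in double-KO cells (difference of 3.00 ± 0.30, adjusted p = 0.019), and a probe without a gene name differed by 2.33 ± 0.22 (adjusted p = 0.019). The lower ones were known by their clone names only, CB193388 (-1.73 ± 0.17, adjusted p = 0.019) and 2810040C05Rik (-1.70 ± 0.19, adjusted p = 0.045). The count was 0 without the 2 h array, where 759 genes had an unadjusted p under 0.05, 120 without the 1 h array, and 17 without either of the late arrays, and it was 50 with scaled ratios.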

How the data were processed

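RNA of LPS-treated and untreated cells was hybridised to 2-colour Agilent arrays, with LPS in Cy5 on the wild-type arrays per the labels. The deposited scanner files hold intensity per spot and channel and a log10 ratio, made by the authors with Feature Extraction 10.10.1.1 per the file headers. Their probe coordinates are on mm9 and exon positions were not analysed here. The deposited value table held the same log10 ratio within 5e-10 on 44397 matched rows, with array medians of 0, and was not used further. Other processing by the authors is not given in the sources used here.

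Mean intensities were background-corrected (normexp, offset 50) and normalised by loess within arrays in limma 3.58.1 (R 4.3.3), with quantile normalisation of average intensities between arrays (Aquantile) for the levels of each channel. Outlier spots were left out and saturated spots kept. Of 39429 probes, 28388 were kept because either channel was well above background on 3 or more of the 20 arrays. Each of the 22035 genes took its brightest kept probe, and 130 genes missed a value on a wild-type array. Of the genes called in the ratio, 166 had other kept probes, and in 21 of these a probe had the opposite sign. Probes were named through RefSeq by accession (27234), symbol (3576) or synonym (565), and otherwise by the file (8054). A fold given as at least sets the bright channel against the higher of the dim probe's own signal and the lowest signal well above background on that array, and is open to dye bias because the wild-type arrays were not dye-swapped.

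Wild-type 8 and 16 h were compared with 1 and 2 h by lmFit and eBayes with Benjamini-Hochberg adjustment, called at 0.05, on 14 arrays (those of wild-type and both single knockouts, without the dye-swapped 2 h array of MyD88-KO; 5 residual degrees of freedom). The comparison with double-KO cells used 19 arrays (7 residual degrees of freedom). Replicate numbers are time points in the labels. Samples of the same time point deviated together between wild-type and TRIF-KO-labelled ratios (r = 0.74 to 0.83) and between wild-type and MyD88-KO ratios (r = 0.28 to 0.70), so the block on time point is given beside those results. The block removes the change from 1 to 2 h and from 8 to 16 h that the genotypes share. Its p-values measure how the genotypes differ in that change. It leaves 3 residual degrees of freedom, or 5 in the comparison with double-KO cells. Double-KO ratios did not pair with wild-type (r = -0.04 to 0.13). The fits were tested on simulated data.

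The genes named are the 10 with the largest difference in each direction per comparison whose early and late arrays do not overlap, the 5 with the largest peak ratio per class, the 5 largest per channel, and members of the 25 gene lists. The members, lists and rules were chosen with earlier results of these data known, so the lists are no independent evidence. Alternatives covered the background correction, both normalisations, the probe filter, the gene summary, the prior, the slide, the arrays in the fit, the time-point block and leaving out each array. Figures were drawn with Python 3.11.15 and matplotlib 3.10.9. The number of arrays limits the precision.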

Additional observations from a re-analysis of the deposited data

Results flagged for a closer look

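The median untreated level of 8 MHC class II presentation genes was 15.02 at 16 h and between 13.81 and 13.96 at the 4 other wild-type times, a gap of 0.876 of the whole range. It was 1 of 78 groups of 5 arrays examined in this way to stand apart, and chance alone sets about 1 in 20 apart. The 16 h array lay on a slide of its own among the wild-type arrays. The untreated median was also highest at 16 h in the other genotypes, at 14.83 under the MyD88-KO label, 14.55 under the double-KO label and 14.76 under the TRIF-KO label. With LPS the wild-type median was 13.69 at 16 h and 13.39 at 8 h, and the median ratio was 0.53 at 2 h and -0.94 at 16 h. No gene of this list passed the test between early and late. With time point as a replicate block 4 of 8 untreated levels rose, beside 3184 of all 22027 genes.

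Wild-type and double-KO responses differed in 4 genes at 1 and 2 h and in 1863 genes at 8 and 16 h, each by a test of the difference itself. The change between these counts was not tested.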

How the results depend on the processing

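The 496 ratio differences numbered 183 with median centring, 1747 with all 20 arrays, 1734 with double-KO arrays added, 3257 with the replicate block and 0 with wild-type alone, and 38 to 496 when an array was left out. The 1406 untreated differences numbered 789 with processed signals, 746 with median centring (41.8% higher against 56.7%), 4842 without quantile normalisation, 321 with slide as a block (76.9% higher), 6524 with the replicate block, 115 with wild-type alone, and 278 to 1406 when an array was left out. The 2157 LPS differences numbered 4188 without quantile normalisation, 5838 with the replicate block, 385 with wild-type alone and 688 to 2157 when an array was left out, and 60.3% were higher with median centring against 46.5%. The 4 early differences from double-KO cells numbered 13 without background correction, 15 with processed signals, 12 with median centring, 50 with scaled ratios, 9 with probe means, 0 with a trend in the prior (1592 at an unadjusted p under 0.05), 2 with all 20 arrays, 71 with the replicate block, 0 with both genotypes alone (1524 unadjusted), and 0 to 120 when an array was left out. The 1863 late ones numbered 1213 with median centring, 927 with scaled ratios (46 of the 1863 then with the opposite sign), 3041 with the replicate block and 1054 to 2862 when an array was left out. Slide as a fixed block could not be fitted for the comparison with double-KO cells. In the ranges with an array left out, the upper ends 496, 1406 and 2157 belong to the wild-type 4 h array. That array enters neither the early nor the late mean, so leaving it out could not change these counts. Leaving out any other wild-type array gave fewer genes in each of these late minus early comparisons. The 6454 genes past 2-fold became 11154 at 1.5-fold and 2997 at 3-fold, and the 3360 classed genes 6235 and 1486. Of the genes recomputed under every alternative, at most 20 per comparison and not all of those named, none reversed its direction. The medians of the untreated late difference turned negative without quantile normalisation for CC chemokines (-0.14), MHC class I processing (-0.14), Nrf2 targets (-0.33), cholesterol synthesis (-0.21), inflammatory cytokines (-0.45), resting receptors (-0.41) and stress response genes (-0.55). The causes were not tested. Dim probes limit the folds given as at least, and saturated spots the highest LPS levels.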

Other observations

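Several further groups are described here for wild-type cells. Over all genes 0.832%, 4.62%, 8.16% and 7.32% were 2-fold higher at 1, 2, 4 and 8 h. On the lower side the shares were 0.259%, 2.82%, 8.88% and 9.93%. Of 22 cholesterol synthesis genes 8 were past 2-fold at 2 h, 6 at 4 h and 2 at 8 h on the higher side, 3 were 2-fold lower at 8 h, and 6 were early-only. Hmgcs1, an early enzyme of the pathway, had ratios of 0.38, 1.63, 0.60, 0.50 and -0.42, and Idi1, an isomerase of the same pathway, 0.37, 1.96, 1.76, 0.70 and -0.46. The 8 h counts of this list lay near the shares over all genes. No ratio of this list passed the test between early and late. With time point as a replicate block 3 ratios were lower, while 9 untreated levels were higher and 2 lower. Over all 22027 genes that block gave 1734 lower ratios, 3184 higher untreated levels and 3340 lower ones. Of 17 genes of the unfolded protein and integrated stress response 7 were past 2-fold at 2 h and 12 at 4 h. Phgdh, the first enzyme of serine synthesis, had -0.43, -0.30, 1.55, 1.77 and 1.57, with a rise of 2.04 ± 0.24 in the ratio (adjusted p = 0.013) and of 2.36 ± 0.34 in the untreated level (adjusted p = 0.010). In that list Pdia4, a chaperone of the endoplasmic reticulum, was the 1 ratio that fell, by 0.88 ± 0.14 (adjusted p = 0.028).

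Of 12 genes of MHC class I processing none was past 2-fold at 1 or 2 h and 5 were at 4 and 8 h. Their LPS level rose in 6 and their untreated level in 2. Over all genes 4.55% rose in the LPS level and 3.62% in the untreated level, and 1.23% fell in the ratio. Tap1, a subunit of the peptide transporter, had ratios of 0.29, 0.40, 1.95, 1.19 and 0.20, while its untreated level rose by 1.61 ± 0.37 (adjusted p = 0.043) and its LPS level by 1.96 ± 0.36 (adjusted p = 0.017). Among 13 interferon regulatory factors and STATs 4 untreated levels rose, Stat2, a transcription factor of interferon signalling, by 1.44 ± 0.20 (adjusted p = 0.0085), and 2 ratios fell, those of Irf1 and of Irf4. Irf4, a lymphoid and macrophage factor, had 0.47 and 1.92 at 1 and 2 h and was at least 2.83-fold lower at 8 h. Of 14 genes of proteases, plasminogen and coagulation 5 were 2-fold higher at 1 h and 9 from 2 to 8 h, when 1 was 2-fold lower. F3, the tissue factor that starts coagulation, had 2.66 and 6.23 at 1 and 2 h and -0.17 at 16 h, and Mmp14, a membrane-bound protease, 0.34, 1.77, 3.61, 4.04 and 3.75. Of 13 lipid-handling targets of PPAR and LXR 5 were at least 2-fold lower and 1 higher at 4 and 8 h, and 3 untreated levels rose, among them Abcg1, a cholesterol exporter, by 1.21 ± 0.22 (adjusted p = 0.021). The 16 lysosomal genes had at most 2 past 2-fold in either direction at any time.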
